A study of Mus musculus with 2 samples.

Results

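The transcripts described here are those of interleukin-2 (*Il2*), the chains of its receptor (*Il2ra*, *Il2rb*, *Il2rg*), the STAT5 transcription factors (*Stat5a*, *Stat5b*) and the feedback inhibitors CIS and SOCS1 to SOCS3 (*Cish*, *Socs1*, *Socs2*, *Socs3*). They were chosen by symbol, as the ligand, receptor, transcription factors and inhibitors of the IL-2 pathway, and make up 10 of the 23282 gene rows that were counted. All 10 passed the expression minimum, which 12112 rows passed. Naïve CD4 T cells from the spleens of *Fak* fl/fl mice, female and 6 to 8 weeks old, were activated for 20 to 24 hours and then transduced with a control retrovirus or with a retrovirus carrying Cre recombinase (RV-Cre). Cre removes the floxed part of *Fak*, which encodes focal adhesion kinase and is listed under the symbol *Ptk2*. All cells received plate-bound anti-CD3ε at 10 µg/ml, soluble anti-CD28 at 5 µg/ml, IL-6 at 50 ng/ml, TGFβ1 at 1 ng/ml, TNFα at 1 ng/ml, IL-1β at 2 ng/ml, and anti-IFNγ and anti-IL-4 at 5 µg/ml each. These are Th17-polarizing conditions, and no IL-2 is listed among the added cytokines. After 3 days, GFP+ cells, which carry the vector, were sorted, and 1 QuantSeq 3′ library per condition was made from 500 ng of total RNA. The genotype of the control library is labelled WT, but the cells in its title are *Fak* fl/fl, and the title was followed. Cre and the loss of *Fak* came together in the RV-Cre library, so their effects cannot be told apart, and transcripts present before transduction were made with *Fak* intact.

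IL-2 is a growth factor that activated T cells make and also consume. The β chain and the common γ chain of its receptor carry the signal through the kinases JAK1 and JAK3 to STAT5, while the α chain (CD25) raises the affinity for IL-2. STAT5 turns on *Il2ra* and the genes of CIS and SOCS proteins, which restrain the receptor and its kinases. In CD4 T cells, signals through STAT5 are known to restrain the Th17 program and to favour regulatory T cells, and SOCS3 is known as an inhibitor of IL-6 signalling through STAT3, the pathway that drives Th17 cells.

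The promoter windows of *Cish*, *Socs3* and *Il2ra* are shown because they hold matches to the motifs of the transcription factors that are measured beside them, namely STAT proteins and NF-κB. Each window runs from 250 bases before to 50 bases after a RefSeq transcript start on GRCm38.p6. It is written 5′ to 3′ on the strand of the gene, and the motif matches are in capitals.
*Cish*, chr9:107296409-107296708, plus strand: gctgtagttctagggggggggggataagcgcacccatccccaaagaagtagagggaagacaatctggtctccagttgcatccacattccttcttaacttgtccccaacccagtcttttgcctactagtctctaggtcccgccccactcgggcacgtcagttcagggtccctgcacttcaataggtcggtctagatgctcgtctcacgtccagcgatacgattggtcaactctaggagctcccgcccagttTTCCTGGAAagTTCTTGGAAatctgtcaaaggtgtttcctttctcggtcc
*Socs3*, chr11:117969317-117969616, minus strand: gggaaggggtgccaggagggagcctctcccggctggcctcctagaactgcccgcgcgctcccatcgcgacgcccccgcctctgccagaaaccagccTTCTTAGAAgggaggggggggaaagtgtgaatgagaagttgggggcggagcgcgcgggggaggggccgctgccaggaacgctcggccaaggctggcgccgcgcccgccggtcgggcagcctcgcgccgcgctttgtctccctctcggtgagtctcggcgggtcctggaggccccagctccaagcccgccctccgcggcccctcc
*Il2ra*, chr2:11642542-11642841, plus strand: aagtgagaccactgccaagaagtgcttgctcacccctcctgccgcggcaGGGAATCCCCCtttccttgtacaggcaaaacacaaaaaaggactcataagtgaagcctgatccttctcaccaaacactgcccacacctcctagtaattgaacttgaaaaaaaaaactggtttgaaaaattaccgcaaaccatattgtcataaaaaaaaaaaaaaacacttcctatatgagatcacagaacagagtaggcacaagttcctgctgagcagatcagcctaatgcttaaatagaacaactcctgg
The STAT motif TTCNNNGAA reads the same on both strands, so it was searched on the strand of the gene. The *Cish* window held 2 non-overlapping matches, at bases 1 to 9 and 12 to 20 counted from the transcript start as base 1. The *Socs3* window held 1 match, from base -154 to base -146. Of all 32851 windows, 8.30% held this motif. The *Il2ra* window held a pair of overlapping matches to the NF-κB consensus between base -201 and base -191, a motif found on either strand in 4.51% of all windows. Of the 8 members with a window, the STAT motif was found in *Cish* and *Socs3* only, and the NF-κB consensus in *Il2ra* and in 1 of the windows of *Stat5a*. *Il2rb* and *Socs2* have no window in the table. The windows of *Cish* and *Socs3* lie inside the annotated genes, which span chr9:107296026-107302784 and chr11:117966079-117970047. The transcript starts used for these windows are therefore not the most upstream ones annotated. These matches describe the letters of the windows, and no binding was measured in these libraries.

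In RV-Cre-transduced Th17 cells the ligand transcript *Il2* was over 2-fold lower than in control Th17 cells, *Socs1* and *Il2ra* were lower by less than 2-fold, *Socs3* was higher by less than 2-fold, and the β and γ chains, *Stat5a*, *Stat5b*, *Cish* and *Socs2* stood within 20% of the control level. Counts were scaled by the TMM method, which sets the bulk of genes equal between libraries, and a ratio is the scaled count of the RV-Cre library over that of the control library. A gene was called at a ratio of at least 2 in either direction on the log2(normalized count + 1) scale, given a value of at least 4 on that scale in 1 library, or 15 normalized reads. By this rule 1 of the 10 members was lower and 0 were higher, against 12.3% of all tested genes lower and 14.2% higher. With 1 library per condition there is no replicate check and no test. The 95% intervals come from the exact Clopper-Pearson method applied to each gene's reads. They hold the error of counting alone and set 1 library against another, not 1 condition against another. Such an interval lay wholly below 1 for 5 members and wholly above 1 for 2, against 38.1% and 36.7% of all tested genes, and it held 1 for 3. The median log2 ratio of the members was -0.10, beside -0.01 for all tested genes.

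**Figure D1:**
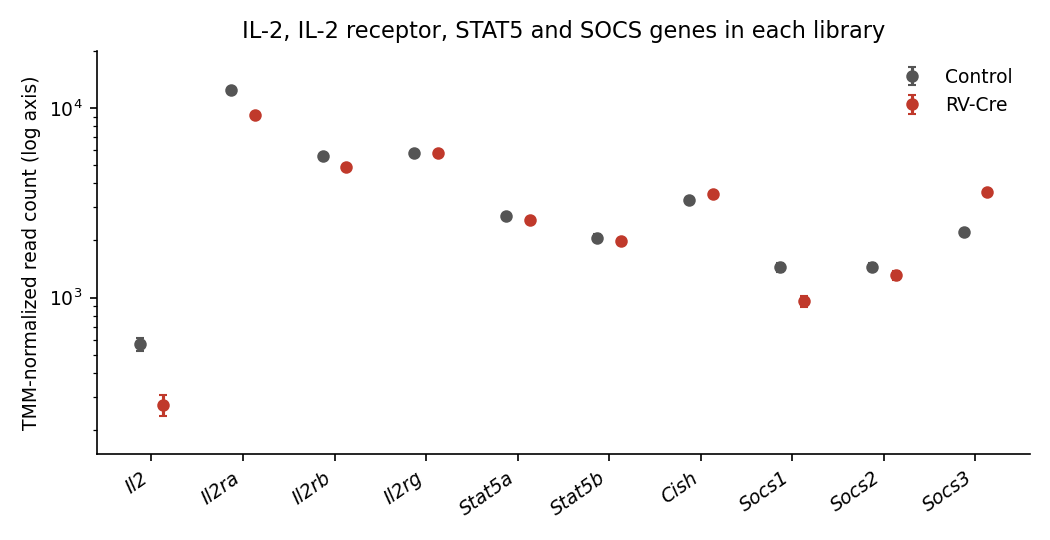
TMM-normalized read counts (log axis) of the 10 transcripts in the control and the RV-Cre library, 1 library each, with 95% counting intervals. *Il2ra* is the highest and *Il2* the lowest of the 10 in both libraries, and the points of *Il2*, *Il2ra*, *Socs1* and *Socs3* lie apart.

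**Figure D2:**
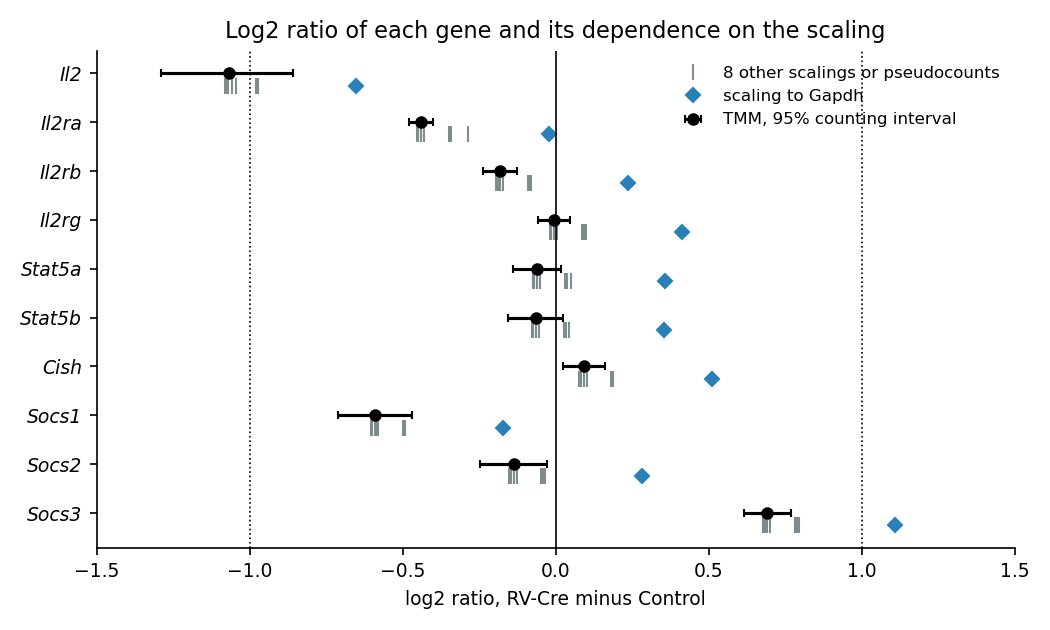
Ratio of the RV-Cre to the control library for each transcript on a log2 axis, with exact 95% counting intervals for TMM. Diamonds mark scaling to *Gapdh*, and ticks mark the other scalings and pseudocounts. *Il2* lies at -1.07 and *Socs3* at 0.69, and the intervals of *Il2rg*, *Stat5a* and *Stat5b* hold 0. With scaling to *Gapdh* in place of TMM, *Il2rb*, *Il2rg*, *Stat5a*, *Stat5b* and *Socs2* lie above 0 (0.24, 0.41, 0.36, 0.35 and 0.28). The median of all tested genes with that scaling was 0.41.

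*Il2*, the ligand, had 602 reads in control Th17 cells and 254 in RV-Cre-transduced cells, or 566.7 and 269.8 normalized counts. The ratio was 0.476 (95% interval 0.410 to 0.552) and the log2 ratio -1.07. It was the only member to reach 2-fold. Among the tested genes, 1340 (11.1%) had a log2 ratio as low or lower. The log2 ratio stayed below 0 under each of 9 other scalings and pseudocounts, between -1.08 and -0.65. It fell short of 2-fold with upper quartile factors, quantile normalization and library totals without *Rn45s*, each at -0.97 or -0.98, and with scaling to *Gapdh*, at -0.65. Since these are bulk libraries, fewer *Il2*-expressing cells and less *Il2* RNA per cell cannot be told apart. The study itself reported the opposite direction, with *Il2* expression elevated in *Fak*-deficient Th17 cells, measured by RT-qPCR and by ELISA of IL-2. What lies behind this difference was not tested.

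The 3′ end of *Il2* is not unique in the genome. *Il2* lies on chr3:37120523-37125959 of GRCm38 on the minus strand, and its annotated transcript of 1144 bases shares a run of 187 identical bases, from base 947 to base 1133, with a transcript of *Ntan1*, which encodes an amidase that acts on N-terminal asparagine. QuantSeq reads start near this end, so a read from the run could not be given to either gene from its sequence alone, and how such reads were counted is not given in the sources used here. *Ntan1* had 425 and 274 reads, with a ratio of 0.728 (95% interval 0.623 to 0.849). With the reads of both genes summed, the counts were 1027 and 528, the ratio 0.580 (95% interval 0.521 to 0.645) and the log2 ratio -0.78, which is lower but short of 2-fold. The size of the *Il2* difference is therefore less certain than its counting interval.

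The receptor chains differed unequally, *Il2ra* most. They are encoded at chr2:11642807-11693193 (*Il2ra*, plus strand), chr15:78479256-78495271 (*Il2rb*, minus strand) and chrX:101264378-101268255 (*Il2rg*, minus strand), and share no 36-base stretch at their 3′ ends with other genes. An exon of *Il2rg* overlaps *Gm20489*, annotated on the same strand, and how reads there were counted is not given in the sources used here. *Il2ra*, the α chain, was the most abundant member, with 13199 reads in control Th17 cells and 8627 in RV-Cre-transduced cells. Its ratio was 0.738 (95% interval 0.718 to 0.758) and its log2 ratio -0.44, a value that 29.0% of tested genes reached or fell below. *Il2rb*, the β chain, had 5891 and 4605 reads and a ratio of 0.882 (95% interval 0.849 to 0.917), although with scaling to *Gapdh* its log2 ratio was 0.24 instead of -0.18. *Il2rg*, the common γ chain, had 6163 and 5439 reads, and its ratio of 0.996 (95% interval 0.960 to 1.03) left no difference beyond counting error under TMM, while its log2 ratio with scaling to *Gapdh* was 0.41. The median of all tested genes was also 0.41 with scaling to *Gapdh*. The α and β chains were thus lower and the γ chain level under TMM.

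A comparison within each library does not depend on the scaling. For each read of *Il2rg* there were 2.14 reads of *Il2ra* in control cells and 1.59 in RV-Cre-transduced cells, a change of 0.741 (95% interval 0.708 to 0.775). For each read of *Il2rb* there were 2.24 and 1.87 reads of *Il2ra*, a change of 0.836 (95% interval 0.798 to 0.877). Of all reads of the 3 chains, *Il2ra* took 52.3% (95% interval 51.6 to 52.9) in control cells and 46.2% (45.5 to 46.9) in RV-Cre-transduced cells, while *Il2rg* took 24.4% and 29.1%. The α chain therefore lost share to the other chains in the RV-Cre library. Against *Gapdh*, the reference gene of the study's RT-qPCR, *Il2ra* stood level at 0.986 (95% interval 0.888 to 1.09), because *Gapdh* itself had 956 and 634 reads and a ratio of 0.748. These changes of a ratio carry approximate log-normal counting intervals, and those given for shares are exact.

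**Figure D3:**
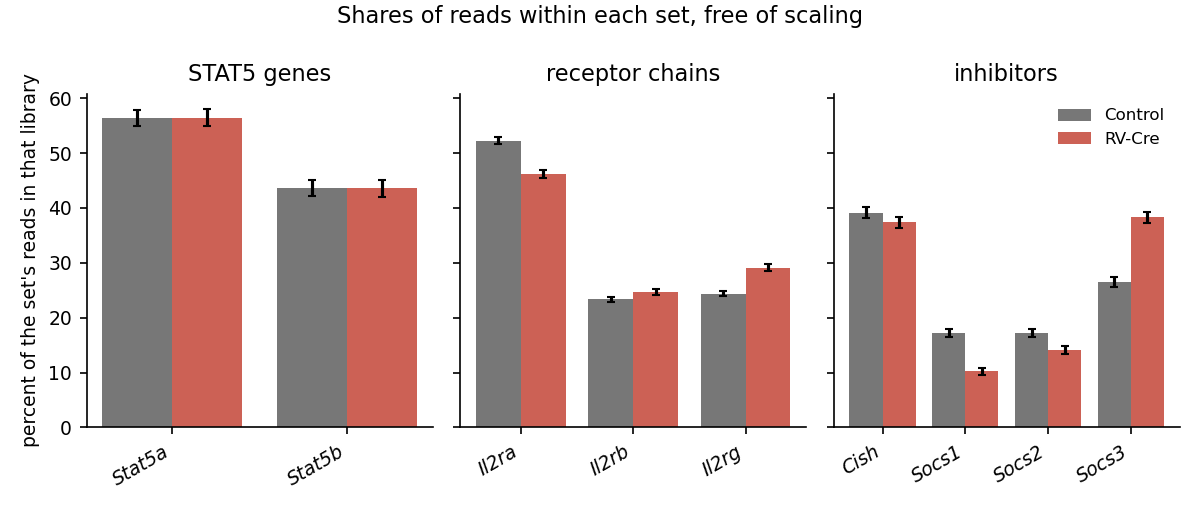
Percent of reads taken by each gene within the receptor chains, the STAT5 genes and the 4 inhibitors in each library, with exact 95% counting intervals. *Il2ra* goes from 52.3% to 46.2% of the chains and *Socs3* from 26.5% to 38.3% of the inhibitors, while *Stat5a* keeps 56.4% and 56.5% of the STAT5 genes.

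The STAT5 transcripts stood within 5% of the control level under TMM. With scaling to *Gapdh* their log2 ratios were 0.36 for *Stat5a* and 0.35 for *Stat5b*, beside a median of 0.41 for all tested genes. *Stat5a* had 2844 reads in control Th17 cells and 2417 in RV-Cre-transduced cells, a ratio of 0.959 (95% interval 0.908 to 1.01). *Stat5b* had 2200 and 1864 reads and a ratio of 0.956 (95% interval 0.898 to 1.02). These genes encode closely related factors and lie 8626 bases apart on chromosome 11, *Stat5b* at chr11:100780731-100850724 on the minus strand and *Stat5a* at chr11:100859351-100885169 on the plus strand. No 36-base stretch in the last 600 bases of their transcripts is shared between them, so reads of one could be told from reads of the other. *Stat5a* took 56.4% of STAT5 reads in the control library (95% interval 55.0 to 57.8) and 56.5% in the RV-Cre library (55.0 to 58.0). An exon of *Stat5a* overlaps *Stat3* on the opposite strand, and 6.55% of the 36-base stretches at its 3′ end are also in *Stat3* transcripts. With no statement of strand-aware counting, a part of its reads may belong to *Stat3*. The transcript level says nothing of STAT5 phosphorylation, which these libraries did not measure. By immunoblot, the study reported more phosphorylated STAT5 and less phosphorylated STAT3 in *Fak*-deficient Th17 cells.

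The inhibitors went in different directions. *Socs3*, whose product blocks signalling from gp130, the signalling chain of the IL-6 receptor, had 2358 reads in control Th17 cells and 3375 in RV-Cre-transduced cells. Its ratio was 1.62 (95% interval 1.53 to 1.70) and its log2 ratio 0.69, and 20.5% of tested genes were as high or higher. *Socs1*, whose product binds and inhibits Janus kinases, had 1531 and 901 reads, with a ratio of 0.664 (95% interval 0.611 to 0.722), or -0.59 on the log2 scale. *Socs3* was thus higher and *Socs1* lower in the RV-Cre library, each short of 2-fold. Under the 9 other scalings and pseudocounts *Socs3* ranged from 0.68 to 1.11 on the log2 scale, past 2-fold with scaling to *Gapdh*, and *Socs1* ranged from -0.60 to -0.17.

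*Cish*, whose product CIS is a STAT5 target that acts on the IL-2 receptor, had 3489 and 3295 reads and a ratio of 1.07 (95% interval 1.02 to 1.12). *Socs2*, best known for its action on growth hormone signalling, had 1534 and 1236 reads and a ratio of 0.909 (95% interval 0.843 to 0.981). With scaling to *Gapdh* its log2 ratio was 0.28 instead of -0.14, where the median of all tested genes was 0.41. Both stood within 10% of the control level under TMM. *Cish* lies at chr9:107296026-107302784 on the plus strand, and 22.5% of the 36-base stretches at its 3′ end are also in transcripts of *Gm17041*, annotated on the opposite strand, so that some of its reads are uncertain. *Socs1* on chr16:10782240-10785536, *Socs2* on chr10:95385362-95417180 and *Socs3* on chr11:117966079-117970047, all on the minus strand, share no such stretch with another gene.

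Together the 4 inhibitors had 8912 unscaled reads of 13799264 in the control library and 8807 of 12305010 in the RV-Cre library, and their make-up differed. *Cish* led in the control library with 39.1% of these reads (95% interval 38.1 to 40.2) and *Socs3* followed with 26.5% (25.5 to 27.4). In the RV-Cre library *Socs3* took 38.3% (37.3 to 39.3) and *Cish* 37.4% (36.4 to 38.4), with intervals that overlap. *Socs1* took 17.2% and 10.2%, and *Socs2* took 17.2% and 14.0%. For each read of *Socs1* there were 1.54 reads of *Socs3* in control cells and 3.75 in RV-Cre-transduced cells, a change of 2.43 (95% interval 2.21 to 2.68). For each read of *Stat3* there were 0.267 and 0.384 reads of *Socs3*, a change of 1.44 (95% interval 1.35 to 1.53). *Socs3* was thus higher in share against the other inhibitors and against *Stat3* alike.

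QuantSeq counts do not grow with transcript length, so normalized counts were also ordered between genes. In the control library the order ran from *Il2ra* (12425) through *Il2rg*, *Il2rb*, *Cish*, *Stat5a*, *Socs3*, *Stat5b*, *Socs2* and *Socs1* to *Il2* (566.7). Neighbours whose counting intervals overlapped were *Il2rg* and *Il2rb*, *Socs3* and *Stat5b*, and *Socs2* and *Socs1*. In the RV-Cre library *Socs3* stood just above *Cish*, the only neighbours with overlapping intervals, and the rest of the order was the same. The members are abundant genes, and abundant genes were called less often in these libraries. In the class with mean log2 values of 11 or more, 1132 genes, where *Il2ra*, *Il2rb*, *Il2rg*, *Stat5a*, *Cish* and *Socs3* lie, 3.45% were called higher and 5.74% lower. The median log2 ratio of that class was -0.11, and its middle part ran from -0.45 at the lower quartile to 0.22 at the upper, so that *Il2ra* at -0.44 lay at its lower edge and *Socs3* at 0.69 beyond its upper edge. In the class of *Il2*, where the mean log2 value of 3599 genes ran from 7 to 9, 11.2% were called lower.

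**Figure D4:**
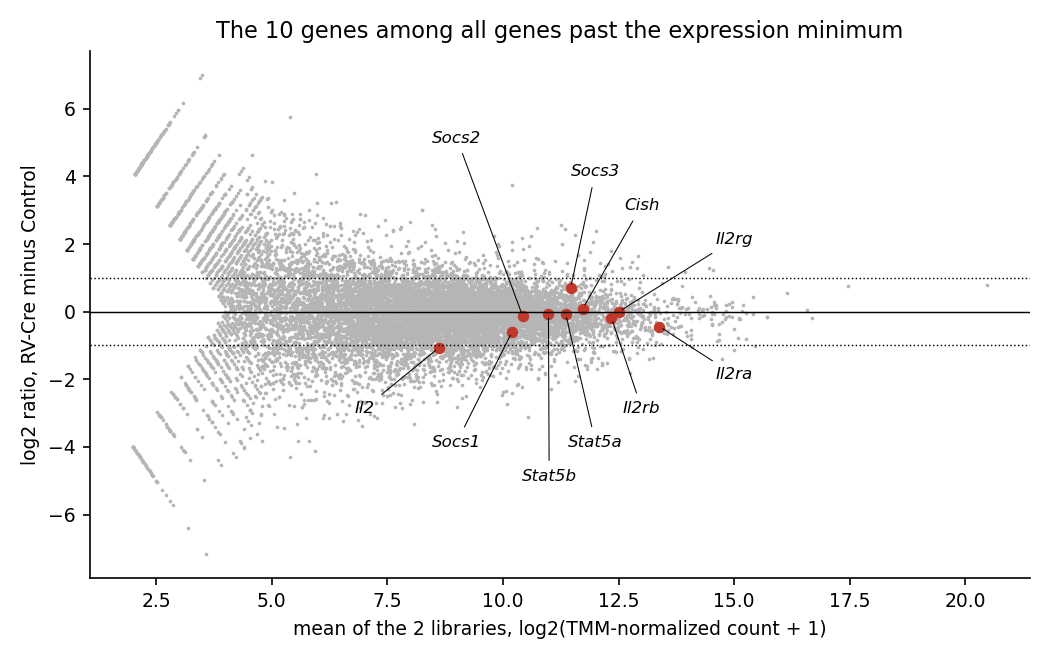
Log2 ratio of the RV-Cre to the control library against the mean log2(normalized count + 1) for the 12112 genes past the expression minimum (grey) and the 10 members (red), with dotted lines at 2-fold. *Il2* lies just past the lower line at -1.07 and the other members lie between the lines.

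Of the Janus kinases and the other STATs, all 9 passed the minimum, with a median log2 ratio of 0.17. In this list 1 was at least 2-fold higher and 0 lower, against 14.2% and 12.3% of all tested genes. The 1 that rose was *Jak1*, the kinase bound to the β chain and also to gp130, with 5144 reads in control Th17 cells and 11239 in RV-Cre-transduced cells, a ratio of 2.47 (95% interval 2.39 to 2.55). *Jak3*, the kinase of the γ chain, had 948 and 1028 reads and a ratio of 1.22 (95% interval 1.12 to 1.34). *Jak2* and *Tyk2*, the kinases of other cytokine receptors, had log2 ratios of 0.09 and 0.41. *Stat3*, the factor downstream of IL-6, had 8830 and 8782 reads and a ratio of 1.12 (95% interval 1.09 to 1.16). The log2 ratio was 0.65 for *Stat2*, which serves interferon receptors, 0.01 for *Stat4*, which serves IL-12, and 0.03 for *Stat6*, which serves IL-4.

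Of the other receptors and cytokines of the common γ chain family, 8 of 12 passed the minimum, with 1 higher, 2 lower and a median log2 ratio of 0.41, where 14.2% of all tested genes were higher and 12.3% lower. *Il21r*, the receptor of IL-21, rose from 2156 to 5485 reads, a ratio of 2.87 (95% interval 2.73 to 3.02). *Il9*, a cytokine of the same family, fell from 578 to 226 reads, a ratio of 0.441 (95% interval 0.377 to 0.515), and *Il15ra* fell from 65 to 23 reads. *Il4*, *Il7* and *Il9r* had 0 reads in both libraries. The 95% counting interval of 0 reads reaches 3.47 normalized counts in the control and 3.92 in the RV-Cre library. Of the 14 other SOCS genes and inhibitors of JAK-STAT signalling, 2 rose and 1 fell, with a median log2 ratio of 0.03. *Ptprc*, encoding the phosphatase CD45, and *Sh2b3*, encoding the adaptor LNK, rose at log2 ratios of 1.33 and 1.05. *Ptpn2*, encoding a phosphatase that acts on JAK1, JAK3 and STAT5, fell from 1174 to 485 reads, a ratio of 0.466 (95% interval 0.419 to 0.519).

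Among the 20 genes of the adaptor, PI3K and MAPK arms of the receptor, 2 rose and 2 fell, with a median log2 ratio of 0.11. Of all tested genes, 14.2% were called higher and 12.3% lower, here and for the next list. *Pik3r1*, the regulatory subunit of PI3K, rose from 930 to 1820 reads, and *Gab2*, an adaptor, rose from only 5 to 19 reads. *Map2k1*, a kinase of the MAPK arm, fell from 661 to 261 reads. Among the 23 activators and repressors of *Il2* transcription, 2 rose and 1 fell, with a median log2 ratio of -0.04. *Jund*, an AP-1 member, and *Satb1*, a chromatin organizer, rose at log2 ratios of 1.36 and 1.18, and *Relb*, an NF-κB member, fell at -1.04, a call that was lost with upper quartile factors, quantile normalization, library totals without *Rn45s* and scaling to *Gapdh*. The other 20 regulators of *Il2* in the list stayed within 2-fold. With scaling to *Gapdh*, the γ chain family and the *Il2* regulators had 4 genes higher each, the adaptors 3, and the Janus kinases and STATs and the other inhibitors 2 each, and 0 genes were lower in any of these lists. That scaling raised the ratios of genes at large, with 2960 genes higher and 780 lower over all genes.

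Genes known to be raised by IL-2 and STAT5 in T cells moved both ways. Of 20 listed, 19 passed the minimum, 2 rose and 5 fell, with a median log2 ratio of -0.19, beside 14.2% and 12.3% of all tested genes. With scaling to *Gapdh*, 5 were called higher and 5 lower, and the list median was 0.23, beside 0.41 for all tested genes. Over all genes that scaling gave 2960 higher and 780 lower. *Tnfrsf18*, encoding the receptor GITR, and *Bcl2*, an inhibitor of apoptosis, rose from 1884 to 5285 and from 1081 to 2814 reads. *Gzmb*, a cytotoxic protease, fell from 198 to 8 reads, and *Lta*, the cytokine lymphotoxin α, fell from 4667 to 472. *Myc*, a driver of growth, fell from 1678 to 315 reads, and *Ctla4*, an inhibitory receptor, fell from 6530 to 1409. The fifth was *Tbx21*, the Th1 factor T-bet, named here after its value was seen, with 1569 and 399 reads. *Foxp3*, the regulatory T cell factor and a STAT5 target, had 830 and 650 reads and a ratio of 0.884 (95% interval 0.796 to 0.980). The study reported FOXP3 expression as increased in *Fak*-deficient Th17 cells, by flow cytometry and RT-qPCR.

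Genes known to be lowered by IL-2 and STAT5 also moved both ways. Of the 10 listed, all passed, 4 rose and 3 fell, with a median log2 ratio of 0.54. *Klf2* and *Tcf7*, factors of resting T cells, rose from 1175 to 5668 and from 142 to 424 reads. *Il6ra*, the IL-6 receptor chain, rose from 270 to 626 reads. *Il17a* and *Il17f*, the Th17 cytokines, fell from 424 to 103 and from 421 to 79 reads, and *Cxcr5*, a chemokine receptor, fell from 375 to 138. Of the 17 genes of the IL-6, IL-21 and IL-23 arm that leads to STAT3, 15 passed, 3 rose and 2 fell, with a median log2 ratio of 0.09. Those that rose were *Il21r*, *Il6ra* and *Jak1*, named above, and those that fell included *Il12rb1*, a chain of the IL-23 receptor, from 673 to 140 reads. Some genes stand in more than 1 list. Over all of these lists 107 genes passed, 14 rose and 16 fell, and their median log2 ratio was 0.03, beside 14.2% of all tested genes higher, 12.3% lower and a median of -0.01.

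**Figure D5:**
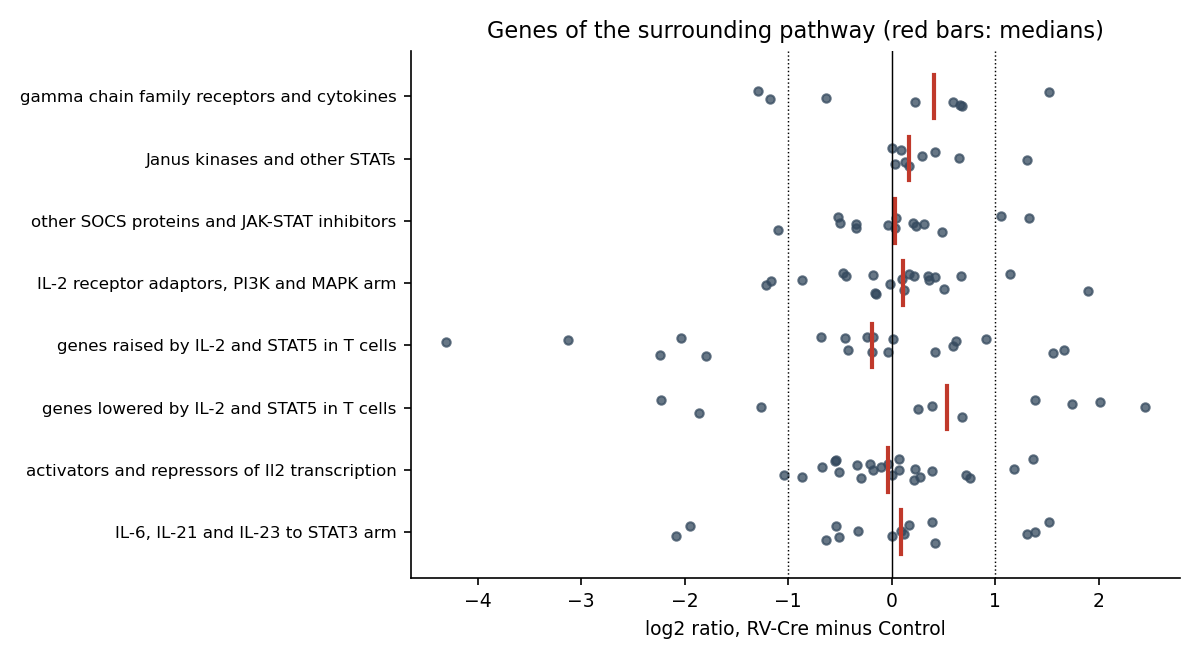
Log2 ratio of the RV-Cre to the control library for each gene past the minimum in the 8 pathway lists, with the median of each list and dotted lines at 2-fold. The list medians lie between -0.19 and 0.54, and single genes lie on either side of 0 in each list other than the Janus kinases and STATs, where all 9 lie above 0.

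The libraries held 13799264 reads in the control and 12305010 in the RV-Cre sample. *Ptk2* had 110 and 31 reads, with a ratio of 0.318 (95% interval 0.206 to 0.477), in the direction the labels give. The ribosomal RNA row *Rn45s* took 8.50% and 14.6% of reads. Of 11 T cell markers all passed, with summed normalized counts of 31887 and 42476, and *Cd4* had 1489 and 1342 reads. Both CD8 T cell markers rose, with summed normalized counts of 418.0 and 907.2. *Cd8a* stood at 303.1 and 616.1 normalized counts, beside 1402 and 1426 for *Cd4*. The NK list summed to 250.4 and 93.5, with 2 of 5 passed, *Klrd1* lower and *Klra8* at 0 in both libraries. B cell markers summed to 53.7 and 131.7 (5 of 6 passed, *Pax5* at 0), myeloid markers to 114.8 and 219.9 (4 of 7 passed, *Mpo* at 0), dendritic cell markers to 81.0 and 78.6 (3 of 6 passed, *Clec9a* at 0), and red cell and platelet markers to 86.6 and 338.9 (4 of 5 passed). NK and CD8 T cells also express *Il2rb* and *Gzmb*, and the part of these cells in the differences was not tested.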

How the data were processed

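RNA-seq libraries of control and RV-Cre-transduced Th17 cells, 1 per condition, were analysed. The values the authors deposited are unnormalized read counts for 23282 rows named by gene symbol, of which 79 share a symbol with another row. The submitters' processing notes name bcl2fastq 2.20.0.422, Bowtie2, bedtools and the build mm10. The roles of these tools, the annotation and the strand setting of the counting are not given in the sources used here. The depth was 13799264 and 12305010 reads. Reads carry no molecular identifiers, so amplified copies of the same molecule cannot be told from separate molecules. All intervals cover the error of counting reads only, and may be too narrow for that reason.

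Counts were scaled with TMM factors (1.06 and 0.941) from edgeR 4.0.16 in R 4.3.3 and compared as log2(normalized count + 1). Genes below 4 on this scale in both libraries were left out. Exact intervals were computed with scipy 1.17.1. No test across genes was run, since there is 1 library per condition. The procedure was run on simulated libraries with counting error alone and 200 genes changed 4-fold up or down. All 200 were recovered, and 64 of 11491 unchanged genes past the minimum were called. Variation between cultures was not simulated, so this does not show how far the calls hold for the conditions. Gene positions and transcript ends came from GENCODE M21 (GRCm38), promoter windows from RefSeq (GRCm38.p6), where 8 of the 10 members matched by symbol.

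The members and gene lists were chosen with earlier results of these data known. Genes named are the 10 members, *Ptk2*, *Gapdh*, *Stat3*, *Foxp3* and *Il17a*, the Janus kinases and STATs, and in each list the genes past 2-fold, at most 4 per direction. *Tbx21*, *Ntan1*, *Rn45s*, *Gm17041*, *Gm20489* and single markers were named outside this rule. Some genes that the rule names are not reported here. Alternatives were DESeq2 1.42.0 size factors, upper quartile factors, library totals with and without *Rn45s*, median centring, quantile normalization with limma 3.58.1, scaling to *Gapdh*, pseudocounts of 0.1 and 10, other minimums, folds of 1.5 and 3, and calls by the counting interval. The RT-qPCR, protein and in vivo experiments of the study were not analysed here.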

Additional observations from a re-analysis of the deposited data

How the results depend on the processing

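No paired analysis was possible because there is a single library of either kind. For the same reason no library could be left out. Across the alternative scalings and pseudocounts and the summed reads of *Il2* and *Ntan1*, 59 of 91 log2 ratios of members differed from the TMM value by less than the counting error, 30 moved beyond it, and 2 whose counting interval had excluded 0 changed sign, both with scaling to *Gapdh* (*Il2rb* 0.24 and *Socs2* 0.28). *Il2rg*, *Stat5a* and *Stat5b*, whose intervals held 0, also lay above 0 with that scaling (0.41, 0.36 and 0.35) and lay above 0 under 5, 4 and 4 of the 9 alternatives. That scaling moved the median of all genes by 0.42 and gave 2960 higher and 780 lower genes, so that 79.1% of called genes were higher, beside 53.6% with TMM. Library totals, DESeq2 size factors, median centring and the other pseudocounts moved no member beyond counting error. They barely moved the median of all genes either, DESeq2 size factors most, by -0.014, so they could hardly move these abundant genes. The count of members at least 2-fold lower was 0 with upper quartile factors, with quantile normalization, with library totals without *Rn45s*, with scaling to *Gapdh*, at a fold of 3, and with *Il2* and *Ntan1* reads summed, an alternative chosen after seeing the data. It was 2 at a fold of 1.5 (*Il2*, *Socs1*) and 5 when an interval that excludes 1 was the rule. The count of members higher was 1 with scaling to *Gapdh* and 1 at a fold of 1.5 (both *Socs3*), and 2 by the interval rule (*Socs3*, *Cish*). Over all genes, counts of higher and lower genes were 3265 and 2441 with no minimum, 2847 and 2777 at a fold of 1.5, 1008 and 669 at a fold of 3, and 4443 and 4609 by the interval rule. A minimum of 6 left 734 higher genes and a minimum in both libraries left 758. Of the counts for the pathway lists, 178 stayed within 1.5 times of those given and 14 moved. Depth limits the genes of few reads, such as *Gab2*, most of all. Variation between cultures, animals and transductions was not measured and cannot be judged from these libraries.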

Other observations

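The primer sequences listed for the study's RT-qPCR of *Il2* and *Socs3* were placed on the annotated transcripts, because they show which part of each transcript that assay reads beside the 3′ ends counted here. They are written 5′ to 3′ in lower case.
*Il2* forward: tgagcaggatggagaattacagg
*Il2* reverse: gtccaagttcatcttctaggcac
*Socs3* forward: agtgcagagtagtgactaaacattacaaga
*Socs3* reverse: agcaggcgagtgtagagtcagagt
The *Il2* pair matched bases 229 to 251 and 326 to 348 of the *Il2* transcript and spans 120 bases, outside the run of 187 bases shared with *Ntan1*. The *Socs3* reverse primer matched bases 11 to 34 of a *Socs3* transcript of 2552 bases, while the forward primer matched no annotated transcript. The same *Socs3* pair is listed for RT-qPCR and for chromatin immunoprecipitation of the promoter. By RT-qPCR the study reported both *Il2* and *Socs3* as higher in *Fak*-deficient Th17 cells. In the libraries counted here *Socs3* was higher and *Il2* lower.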
